A study of Homo sapiens with 12 samples.

Results

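The genes described here are 34 known targets of the transcription factor p53 and genes of the apoptosis machinery, measured by RNA sequencing in HK2 cells. They were taken as a named list and matched by symbol, and each of the 34 matched 1 of the 62703 Ensembl identifiers of the deposited table. All 34 also passed the filter on low values and were among the 14639 genes tested. HK2 is a line of human renal proximal tubule epithelium immortalised with the E6 and E7 genes of a human papillomavirus. The 12 libraries fell into 4 groups of 3. NG cells were kept in 5.5 mM glucose and received a control vector, and HG cells were kept in 50 mM glucose, with no vector stated for them. The si-FGF9 cells were kept in 5.5 mM glucose and received an siRNA against FGF9, the growth factor that the study was about, and HG+OE-FGF9 cells were kept in 50 mM glucose and received a vector that overexpresses FGF9. No non-targeting siRNA is described for these cells, so that an effect of the transfection with siRNA cannot be told apart from one of FGF9 in si-FGF9 versus NG. Since no vector is stated for HG, effects of vector and glucose cannot be told apart in HG versus NG. Nor can effects of vector and FGF9 be told apart in HG+OE-FGF9 versus HG. The sources also differ on 2 points, since one passage gives mannitol for NG and one names an adenovirus in place of a lentivirus.

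In most cells p53 is held at a low level by the ubiquitin ligase MDM2, itself a p53 target, and accumulates after DNA damage or other stress. It then binds paired decamers near its target genes and raises genes that halt the cell cycle, repair DNA, change metabolism or promote death. The viral E6 protein directs p53 to degradation and E7 releases the cell cycle from RB, so that p53 targets in HK2 cells are transcribed in a cell whose p53 protein is disturbed from the outset. Apoptosis starts either at the mitochondria, where members of the BCL2 family promote or oppose the release of cytochrome c, or at death receptors on the cell surface, and both routes end in caspases. In the kidney, loss of tubular cells by apoptosis is a known part of acute and diabetic injury.

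The values are TPM, shares of all transcripts that are corrected for gene length and carry no record of depth, so that depth is unknown here. At a TPM of 1 or more, each library held 11549 to 13949 genes. FGF9 was listed at 0 in all 9 libraries of NG, HG and si-FGF9, and its TPM was 3.34, 4.03 and 3.82 in HG+OE-FGF9. The knockdown could therefore not be checked against its target in these sequencing values. The study also measured FGF9 by RT-qPCR in HK2 cells of the same groups, which is not taken up here. Keratins marked the cells as epithelial (summed TPM of 6 epithelial markers, 945 to 1570.2), but E-cadherin (CDH1) did not exceed 0.28 TPM, and the proximal tubule genes LRP2, CUBN, SLC34A1 and ANPEP did not exceed 0.26, while PAX8 and GGT1 were present. Summed endothelial markers reached at most 0.15 TPM and leukocyte markers, nearly all CD14, at most 3.92. The 5 fibroblast markers summed to 5.14 to 12.4 TPM in NG and to 2.25 to 3.55 in the other groups. Their part in the results was not tested, and in RNA from whole cultures fewer cells of a type and less RNA per cell cannot be told apart. The HG libraries differed widely among themselves. Over genes with a TPM of at least 100, the median absolute log2 ratio was 0.204 between HG replicates 1 and 2, 0.256 between 1 and 3 and 0.387 between 2 and 3, the largest of any pair within a group, against 0.0454 to 0.173 between the NG libraries. HG+OE-FGF9 replicates 1 and 2 were the closest pair of the series (0.0298, against 0.202 and 0.209 with replicate 3). Without counts it could not be tested whether these 2 are separate libraries, and results in that group are therefore also given with their mean as 1 sample.

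In HG versus NG, 12 of the 34 genes were lower in HG and 0 were higher, by the criteria of the study, which ask for an absolute log2 fold change of 1 or more and, before adjustment, a p under 0.01 (here from limma). Of all genes tested, 24.4% were called, 22.7% as lower and 1.65% as higher. At an unadjusted limma p under 0.05 and no minimum fold change, 20 of the 34 lay lower and 1, BAX, higher, against 45.0% and 10.8% of all genes. The median log2 fold change of the 34 genes was -0.87 and that of all genes -0.39. The 12 genes were BTG2, PLK2, PPM1D, RRM2B, SESN1, TP53INP1, ZMAT3, PMAIP1, MCL1, FAS, TNFRSF10B and XIAP, and each had an adjusted p under 0.05 (Benjamini-Hochberg over all genes tested). For 20 of the 34 genes every HG library lay below every NG library, as it did for 46.5% of all genes, and for 1 (BAX) every HG library lay above, as for 10.7%. With 3 libraries against 3, the smallest p of an exact two-sided permutation test on one gene is 0.1.

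In si-FGF9 versus NG, 21 of the 34 genes were lower in si-FGF9 and 0 were higher, against 47.6% called among all genes, 42.2% as lower and 5.36% as higher. By the limma p under 0.05 alone, 24 lay lower and 1, DDB2, higher, against 59.1% and 12.3% of all genes. The median was -1.42, against -0.79 over all genes. These 21 included all 12 that were lower in HG, and the other 9 were MDM2, MDM4, XPC, TIGAR, BCL2, BCL2L1, TNFRSF10A, CASP8 and CASP9, of which MDM2 turned direction after a correction for GC content and BCL2L1 after another scaling. The NG libraries serve in both comparisons, so that the shared calls are not independent. Between the 2 effects themselves (si-FGF9 versus HG), 2 of the 34 genes passed the criteria, CASP8 and CASP9, both lower in si-FGF9, against 11.1% of all genes, 9.67% as lower. For 13 of the 34 every si-FGF9 library lay below the HG libraries (35.0% of all genes) and for 1, DDB2, above (7.10%). In si-FGF9 every library lay below the NG libraries for 28 genes (62.1% of all genes) and above them for 1, DDB2 (14.3%).

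In HG+OE-FGF9 versus HG, 1 of the 34 genes passed, CDKN1A, which was higher, and 0 were lower, against 5.61% of all genes, 2.94% as higher and 2.67% as lower. With only the unadjusted limma p under 0.05 asked for, 8 lay higher and 8 lower, against 11.3% and 16.9% of all genes. The median of the 34 genes was 0.01 and that of all genes -0.13. The HG+OE-FGF9 libraries all lay above the HG libraries for 8 genes (12.2% of all genes) and below for 2 (9.95%). Against NG, 13 of the 34 were lower in HG+OE-FGF9 and 0 higher, where 39.7% of all genes were called, 32.7% as lower and 7.01% as higher, and by the limma p under 0.05 alone 19 of the 34 lay lower and 5 higher (50.5% and 17.7% of all genes). The HG+OE-FGF9 libraries lay below all NG libraries for 22 of the 34 (53.3% of all genes) and above them for 8 (21.2%). The heat map of the 34 genes shows these levels library by library.

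**Figure D1:**
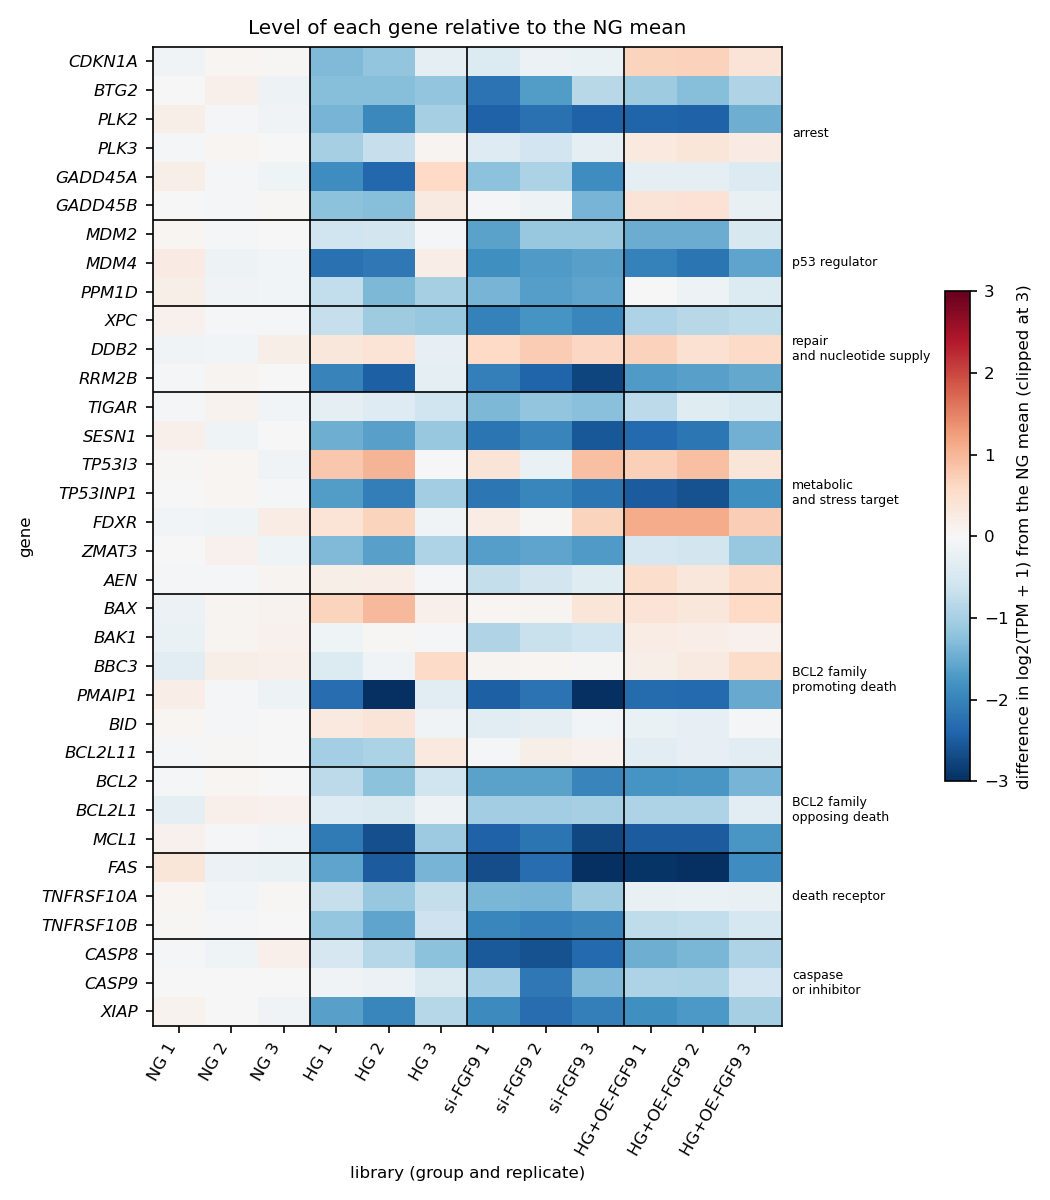
Level of each of the 34 genes (rows, grouped by role) in each of the 12 libraries (columns), as the difference in log2(TPM + 1) from the mean of the 3 NG libraries, blue for lower and red for higher. Most rows are blue in HG, si-FGF9 and HG+OE-FGF9, HG replicate 3 is paler than the other HG libraries in many rows, and the CDKN1A row has its reddest cells in the HG+OE-FGF9 columns.

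Fewer of these genes passed after another scaling of the libraries. Scaling by the median of ratios moved the all-gene median from -0.39 to 0.01 for HG versus NG, from -0.79 to 0.00 for si-FGF9 versus NG and from -0.13 to 0.00 for HG+OE-FGF9 versus HG. Relative to this shift, 3 of the 34 genes were lower in HG (TP53INP1, MCL1 and FAS) and 1 higher (BAX), against 8.27% and 7.43% of all genes. In si-FGF9 12 were then lower and 4 higher (DDB2, TP53I3, FDXR and BAX), against 17.5% and 19.2% of all genes. The calls also followed the GC content of the transcripts. Of the 34 genes, 10 lay in the tercile of all tested genes with the lowest GC content, and 7 of these were called lower in HG and all 10 in si-FGF9. In the middle tercile 5 of 15 were lower in HG and 10 of 15 in si-FGF9, and in the highest tercile 0 of 9 and 1 of 9. Over all genes tested, 50.3%, 16.8% and 2.18% of these terciles were called lower under HG and 72.0%, 42.7% and 13.7% with si-FGF9. When GC content was corrected for, library by library, MCL1 alone of the 34 genes was called in HG versus NG, as lower, against 6.84% of all genes in either direction. In si-FGF9 versus NG, 8 genes (PLK2, XPC, SESN1, MCL1, FAS, TNFRSF10B, CASP8 and CASP9) were lower and 2 (DDB2 and BCL2L11) higher after this correction, against 24.3% of all genes in either direction. CDKN1A was called in HG+OE-FGF9 versus HG under both settings. The calls that held under every alternative tried were MCL1 in HG versus NG, PLK2, XPC, SESN1, MCL1, FAS, TNFRSF10B and CASP8 in si-FGF9 versus NG, and CDKN1A in HG+OE-FGF9 versus HG.

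**Figure D2:**
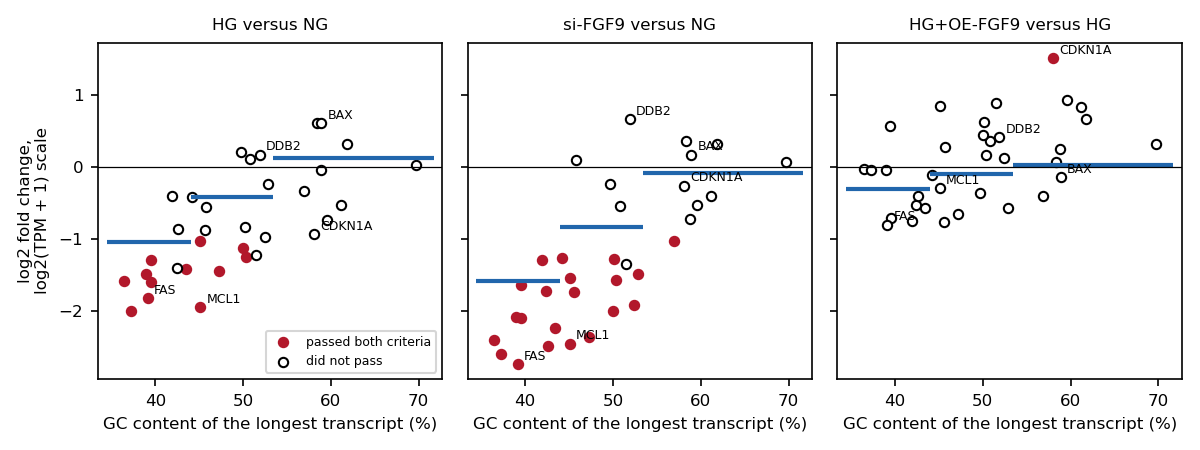
Log2 fold change on the log2(TPM + 1) scale (y axis) against the GC content of the longest annotated transcript in percent (x axis) for the 34 genes in each comparison, with filled points for genes that passed both criteria and blue lines for the median of all tested genes in each GC tercile. In HG versus NG the blue lines rise from -1.04 to 0.12 and in si-FGF9 versus NG from -1.58 to -0.09, and the filled points lie mostly at the left.

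Promoter windows of RefSeq (GRCh38.p14), each from 250 bases before to 50 bases after a start site, were given for 28 of the 34 genes, in 48 windows. The p53 decamer, the consensus unit of 10 bases that p53 binds in pairs, was searched on both strands. It was found in 9 of the 48 windows (18.8%), 1 each for AEN, BAK1, CASP8, CASP9, DDB2, FAS, FDXR, PLK2 and SESN1, against 6.63% of 35116 windows of all genes. A pair of decamers at most 13 bases apart stood in the DDB2 window and in 10 of all windows (0.0285%). The AP-1 heptamer (TGAGTCA or TGACTCA) was found in 5 of the 48 windows (10.4%), which belong to BBC3, CASP8 and MDM2, against 4.95% of all windows. The runs below show DDB2, the gene with the pair, and 4 genes whose lower level in si-FGF9 held under every alternative and whose window has 1 decamer. Each run has 30 bases, reads 5′ to 3′ on the strand of its gene, and carries the decamers in capitals.
DDB2, chr11:47214974-47215003, plus strand: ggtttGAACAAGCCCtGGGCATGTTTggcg
PLK2, chr5:58460199-58460228, minus strand: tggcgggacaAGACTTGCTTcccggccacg
SESN1, chr6:109009018-109009047, minus strand: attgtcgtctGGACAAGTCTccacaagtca
FAS, chr10:88991299-88991328, plus strand: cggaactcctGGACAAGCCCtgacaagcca
CASP8, chr2:201257904-201257933, plus strand: ctttccaataAAGCATGTCCagcgctcggg
These matches are descriptions of the letters only. The DDB2 pair begins 6 bases after the start site and the others lie before it.

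Among the genes that halt the cell cycle, CDKN1A encodes p21, an inhibitor of cyclin-dependent kinases and the best known p53 target. Its TPM was 39.9, 45.0 and 44.1 in NG, 16.6, 18.3 and 35.2 under HG, 32.3, 38.0 and 37.0 with si-FGF9 and 68.7, 69.7 and 56.6 with HG+OE-FGF9. The HG+OE-FGF9 libraries were the highest of all 12, and the HG libraries lay below NG with HG replicate 3 nearest to it. The log2 fold change in HG+OE-FGF9 versus HG was 1.51 ± 0.23 (SE; limma adjusted p = 0.00286), with a range of 1.32 to 1.83 over the alternatives. In HG versus NG it was -0.93 ± 0.23 (limma adjusted p = 0.00654), short of the fold criterion, and without HG replicate 3 it passed at -1.25.

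PLK2, a kinase induced by stress, was the most abundant of the 34 genes in NG, with a TPM of 1014, 865 and 839. It was 345, 236 and 453 under HG, 168, 190.1 and 168 with si-FGF9 and 169, 169 and 327 with HG+OE-FGF9. No library of these 3 groups reached the NG range. Relative to NG, the log2 fold change was -1.44 ± 0.26 for HG (limma adjusted p = 0.00172) and -2.36 ± 0.26 for si-FGF9 (limma adjusted p = 1.68e-05). The HG call of PLK2 was lost after median-of-ratios scaling and after the GC correction. BTG2, an antiproliferative cofactor, had a TPM of 4.39, 5.08 and 3.92 in NG, 1.24, 1.23 and 1.39 under HG, 0.18, 0.70 and 2.04 with si-FGF9 and 1.59, 1.25 and 1.92 with HG+OE-FGF9. It too lay below NG in all 9 libraries of the other groups, and the si-FGF9 libraries were spread widely. Its log2 fold change was -1.25 ± 0.28 for HG and -1.57 ± 0.28 for si-FGF9 (limma adjusted p = 0.004 and 0.000331). Both BTG2 calls were lost after both scalings and after the GC correction, with a smallest change of -0.67 in each comparison.

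The other arrest genes did not pass both criteria in any of the 3 comparisons. GADD45A, a damage-induced growth arrest gene, had a TPM of 263, 224 and 211 in NG, 62.5, 44.1 and 349 under HG, 97.7, 119.7 and 62.5 with si-FGF9 and 187, 191 and 174 with HG+OE-FGF9. HG replicate 3 held the highest value of the series while the other 2 HG libraries held the lowest, so that the mean of HG describes none of its libraries. Without HG replicate 3, its log2 fold changes were -2.12 in HG versus NG and 1.79 in HG+OE-FGF9 versus HG, and both passed. GADD45B, a relative, split in the same way, with 47.8, 46.2 and 137 TPM in HG against 112, 110.1 and 116 in NG. Without that library it passed at -1.24 in HG versus NG and at 1.44 in HG+OE-FGF9 versus HG. PLK3, a kinase related to PLK2, ranged from 6.43 to 18.0 TPM and passed both criteria in HG+OE-FGF9 versus HG without HG replicate 3 (1.13).

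Of the regulators of p53, MDM2 was not called in HG and was lower in si-FGF9, a call lost after both scalings and the GC correction. Its TPM was 41.6, 38.5 and 39.3 in NG, 26.0, 26.8 and 37.9 under HG, 12.4, 17.5 and 17.6 with si-FGF9 and 13.7, 13.4 and 28.0 with HG+OE-FGF9. All si-FGF9 libraries lay below the HG and NG ranges, and HG+OE-FGF9 replicate 3 lay apart from the other 2. In si-FGF9 the log2 fold change was -1.29 ± 0.26 (limma adjusted p = 0.000822), but it turned to 0.11 after the GC correction. MDM4, which binds and restrains p53, had a TPM of 14.9, 10.9 and 11.6 in NG, 1.85, 2.01 and 14.2 under HG, 2.71, 3.13 and 3.35 with si-FGF9 and 2.26, 1.94 and 3.49 with HG+OE-FGF9. HG replicate 3 lay within NG and the other 2 HG libraries far below it. Its log2 fold change was -1.72 ± 0.50 in si-FGF9 (limma adjusted p = 0.00841). This call was lost when NG replicate 1 or 3 or any single si-FGF9 replicate was left out, after both scalings and after the GC correction. In HG, MDM4 passed both criteria without HG replicate 3 (-2.19).

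PPM1D, a phosphatase that switches off the p53 response, had a TPM of 4.61, 3.57 and 3.67 in NG, 1.97, 0.93 and 1.46 under HG, 0.89, 0.57 and 0.65 with si-FGF9 and 3.96, 3.44 and 2.71 with HG+OE-FGF9. HG and si-FGF9 lay below NG without overlap, whereas the HG+OE-FGF9 libraries lay above all HG libraries and overlapped NG. Relative to NG, the log2 fold change was -1.03 ± 0.20 for HG and -1.54 ± 0.20 for si-FGF9, and it was 0.84 ± 0.20 between HG+OE-FGF9 and HG (limma adjusted p = 0.00218, 3.87e-05 and 0.0234). The last did not reach the fold criterion. The HG call was lost without NG replicate 1 or without HG replicate 2. Both the HG and the si-FGF9 call were lost after both scalings and after the GC correction.

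Of the 3 genes of DNA repair and nucleotide supply, XPC and RRM2B were lower in si-FGF9 and DDB2 was not. XPC, which recognises DNA lesions in nucleotide excision repair, had a TPM of 5.46, 4.67 and 4.63 in NG, 2.65, 1.84 and 1.67 under HG, 0.46, 0.72 and 0.51 with si-FGF9 and 2.09, 2.31 and 2.50 with HG+OE-FGF9. The 4 groups ran from NG through HG and HG+OE-FGF9, which overlapped, down to si-FGF9. Its log2 fold change was -0.97 ± 0.17 for HG (limma adjusted p = 0.00155), just short of the fold criterion and not called, and -1.92 ± 0.17 for si-FGF9 (limma adjusted p = 7.43e-06). DDB2, the partner of XPC in damage recognition, had a TPM of 13.3, 13.7 and 16.6 in NG, 18.5, 19.5 and 12.1 under HG, 22.3, 25.2 and 22.9 with si-FGF9 and 23.8, 20.3 and 22.1 with HG+OE-FGF9. Every si-FGF9 and HG+OE-FGF9 library lay above every NG library, the opposite order to XPC. In si-FGF9 the log2 fold change was 0.66 ± 0.18 (limma adjusted p = 0.00655), under the fold criterion, and between 0.61 and 1.65 over the alternatives, with calls after both scalings and the GC correction.

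RRM2B, a p53-inducible subunit of ribonucleotide reductase, had a TPM of 8.44, 9.42 and 8.68 in NG, 1.44, 0.80 and 7.03 under HG, 1.39, 0.85 and 0.45 with si-FGF9 and 2.04, 2.20 and 2.40 with HG+OE-FGF9. HG replicate 3 lay close to NG and the other 2 HG libraries far below. HG differed from NG by a log2 fold change of -1.58 ± 0.43 (limma adjusted p = 0.00959) and si-FGF9 by -2.40 ± 0.43 (limma adjusted p = 0.00031). The HG call was lost without HG replicate 1 or 2, in a fit of the 6 libraries alone, after both scalings and after the GC correction. The si-FGF9 call was lost after the GC correction.

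Of the 7 genes of metabolism and stress, SESN1, TP53INP1 and ZMAT3 were lower in both HG and si-FGF9, TIGAR was lower in si-FGF9, and TP53I3, FDXR and AEN passed in no comparison. SESN1, a sestrin that restrains growth signalling, had a TPM of 9.47, 7.67 and 8.43 in NG, 2.46, 2.07 and 3.30 under HG, 1.07, 1.39 and 0.64 with si-FGF9 and 0.88, 1.13 and 2.51 with HG+OE-FGF9. TP53INP1, a stress-induced nuclear protein, had 10.0, 10.7 and 9.77 in NG, 2.47, 1.65 and 4.42 under HG, 1.50, 1.89 and 1.45 with si-FGF9 and 0.99, 0.81 and 2.13 with HG+OE-FGF9. For both genes the NG libraries stood above all others, and HG replicate 3 was the highest of the HG libraries. SESN1 had log2 fold changes of -1.41 ± 0.25 under HG and -2.24 ± 0.25 with si-FGF9 (limma adjusted p = 0.00149 and 1.65e-05). Those of TP53INP1 were -1.60 ± 0.27 and -2.10 ± 0.27 (limma adjusted p = 0.00129 and 3.46e-05). The HG call of SESN1 was lost after both scalings and after the GC correction. For TP53INP1 the HG call was lost under quantile normalization, and both calls were lost after the GC correction.

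ZMAT3, an RNA-binding p53 target, had a TPM of 4.18, 4.61 and 3.67 in NG, 1.04, 0.67 and 1.71 under HG, 0.63, 0.73 and 0.58 with si-FGF9 and 2.64, 2.50 and 1.34 with HG+OE-FGF9. TIGAR, a regulator of glycolysis, had 2.06, 2.37 and 1.95 in NG, 1.60, 1.40 and 1.05 under HG, 0.23, 0.38 and 0.31 with si-FGF9 and 0.80, 1.44 and 1.28 with HG+OE-FGF9. For ZMAT3 the HG libraries overlapped both si-FGF9 and HG+OE-FGF9, and for TIGAR the si-FGF9 libraries lay below all others. ZMAT3 had log2 fold changes of -1.29 ± 0.22 under HG and -1.64 ± 0.22 with si-FGF9, and TIGAR of -0.42 ± 0.17 and -1.26 ± 0.17 (limma adjusted p of the 3 that passed, 0.00135, 4.72e-05 and 4.81e-05). These 3 calls were lost after both scalings and after the GC correction. The smallest change with si-FGF9 over the alternatives was -0.04 for ZMAT3 and -0.13 for TIGAR. The redox enzyme TP53I3 ranged from 2.29 to 6.59 TPM, the mitochondrial reductase FDXR from 3.69 to 10.1 and the nuclease AEN from 2.10 to 6.56. FDXR was highest in HG+OE-FGF9, where its 3 libraries lay above all HG and NG libraries, with a log2 fold change of 0.66 ± 0.24 versus HG (limma adjusted p = 0.102).

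**Figure D3:**
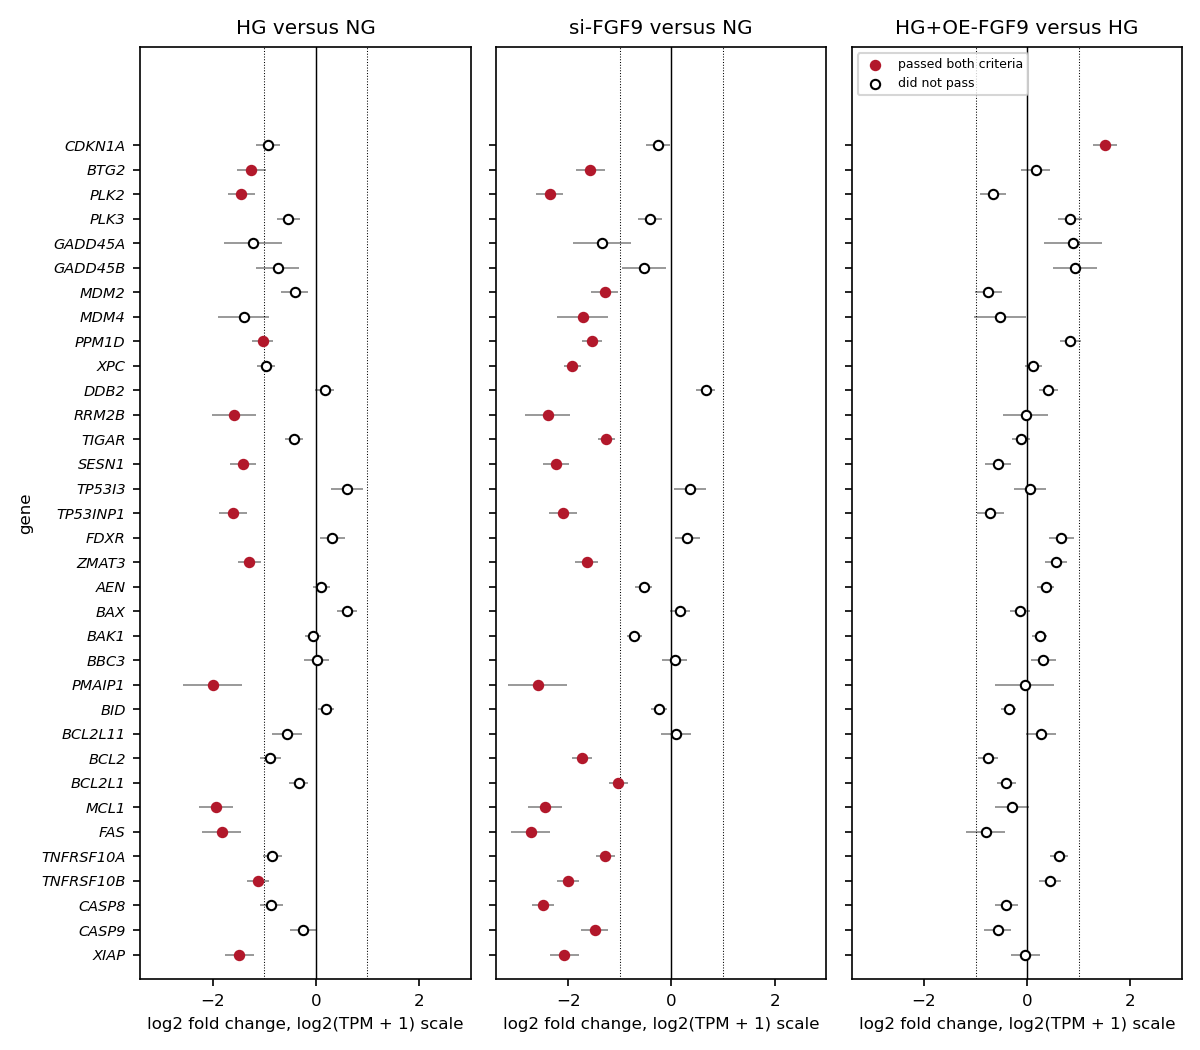
Log2 fold change on the log2(TPM + 1) scale (x axis) of the 34 genes (rows, in the order of the heat map) in each of the 3 comparisons, with bars for the SE from limma, filled points for genes that passed both criteria and dotted lines at a log2 fold change of -1 and 1. With the values as deposited, 12 filled points lie at the left in HG versus NG, 21 in si-FGF9 versus NG, where MDM2 turned direction after the GC correction and BCL2L1 after median-of-ratios scaling, and 1 at the right in HG+OE-FGF9 versus HG.

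Among the 6 members of the BCL2 family that promote death, only PMAIP1 was called. PMAIP1 (NOXA), which binds and neutralises MCL1, had a TPM of 121, 101 and 94.7 in NG, 20.6, 9.34 and 82.2 under HG, 18.5, 21.7 and 11.3 with si-FGF9 and 20.3, 20.2 and 36.0 with HG+OE-FGF9. All HG libraries lay below NG, but HG replicate 3 lay much nearer to NG than to the other 2. HG differed from NG by a log2 fold change of -2.00 ± 0.57 (limma adjusted p = 0.0126) and si-FGF9 by -2.59 ± 0.57 (limma adjusted p = 0.00142). The HG call was lost without NG replicate 1 or 2 or HG replicate 1 or 2, and in a fit of the 6 libraries alone. It was also lost after median-of-ratios scaling and after the GC correction, and the si-FGF9 call was lost after the GC correction. BAX, the pore-forming effector at the mitochondria, had a TPM of 141, 171 and 171 in NG, 256, 316 and 177 under HG, 166, 169 and 207 with si-FGF9 and 214, 203 and 245 with HG+OE-FGF9. It lay above NG in every HG and HG+OE-FGF9 library, by a log2 fold change of 0.60 ± 0.19 in HG (limma adjusted p = 0.0227), under the fold criterion, and by 1.12 after median-of-ratios scaling, where it passed.

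BAK1, the other effector, ranged from 10.9 to 24.7 TPM and was lowest in si-FGF9, with a log2 fold change of -0.72 ± 0.15 (limma adjusted p = 0.000818) that did not reach the fold criterion. BBC3 (PUMA), a p53-induced activator of BAX and BAK1, ranged from 6.70 to 14.2 TPM, and HG and si-FGF9 overlapped NG, with log2 fold changes of 0.02 ± 0.24 under HG and 0.06 ± 0.24 with si-FGF9. The si-FGF9 value of BBC3 ranged from -0.58 to 1.08 over the alternatives, with a call as higher under quantile normalization. BID, which links death receptors to the mitochondria, ranged from 55.3 to 93.2 TPM, and BCL2L11 (BIM) from 1.66 to 5.59. BCL2L11 showed the split of the HG group again, with 1.66, 1.81 and 5.59 TPM.

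The 3 members that oppose death were all lower in si-FGF9, although BCL2L1 turned to 0.02 after median-of-ratios scaling, and MCL1 was lower in HG as well. MCL1, a short-lived protein that restrains BAK1 and BAX, had a TPM of 185, 166 and 159 in NG, 38.5, 26.4 and 79.5 under HG, 30.6, 36.1 and 24.8 with si-FGF9 and 29.1, 29.0 and 50.2 with HG+OE-FGF9. The lowest NG library was at 159 and the highest of the other 9, HG replicate 3, at 79.5. Its log2 fold change was -1.94 ± 0.33 for HG (limma adjusted p = 0.00136, with -2.37 to -1.33 over the alternatives) and -2.45 ± 0.33 for si-FGF9 (limma adjusted p = 4.98e-05, with -2.58 to -1.42). It was not called in HG+OE-FGF9 versus HG (-0.30 ± 0.33).

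BCL2, the founding member, had a TPM of 5.08, 5.53 and 5.15 in NG, 2.60, 1.67 and 3.11 under HG, 1.05, 1.07 and 0.59 with si-FGF9 and 0.83, 0.87 and 1.36 with HG+OE-FGF9. The HG libraries lay between NG and the other 2 groups, without overlap on either side. HG differed from NG by a log2 fold change of -0.88 ± 0.20 and HG+OE-FGF9 from HG by -0.76 ± 0.20, both under the fold criterion, and si-FGF9 from NG by -1.73 ± 0.20 (limma adjusted p = 0.00458, 0.0362 and 2.1e-05). The si-FGF9 call of BCL2 was lost under quantile normalization and after the GC correction. BCL2L1, which encodes BCL-XL, had a TPM of 122, 164 and 162 in NG, 113, 109 and 133 under HG, 71.9, 70.8 and 74.1 with si-FGF9 and 77.7, 77.0 and 118 with HG+OE-FGF9. The si-FGF9 libraries lay below NG and HG, and HG overlapped NG. In si-FGF9 the log2 fold change was -1.03 ± 0.18 (limma adjusted p = 0.000294). The call was lost without NG replicate 2 or 3, after both scalings and after the GC correction.

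Summed within each library, the 6 promoting genes exceeded the 3 opposing genes by a ratio of TPM of 1.17, 1.12 and 1.15 in NG, 2.54, 3.29 and 1.69 under HG, 2.56, 2.55 and 3.15 with si-FGF9, and 3.10, 3.01 and 2.29 with HG+OE-FGF9. Multiplying a library by a constant does not change this ratio. Of the promoting genes, BAX, BAK1 and BBC3 lie in the highest GC tercile, BID and BCL2L11 in the middle and PMAIP1 in the lowest, and of the opposing genes BCL2L1 lies in the highest and MCL1 and BCL2 in the middle, and the part of GC content in the ratio was not tested. Every library of the other 3 groups lay above NG. The opposing sum was 312 to 336 TPM in NG and 99.5 to 215 in the other groups, and the promoting sum was 366 to 377 in NG and 265 to 450.3 in the others. These sums count RNA, and say nothing of the proteins.

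**Figure D4:**
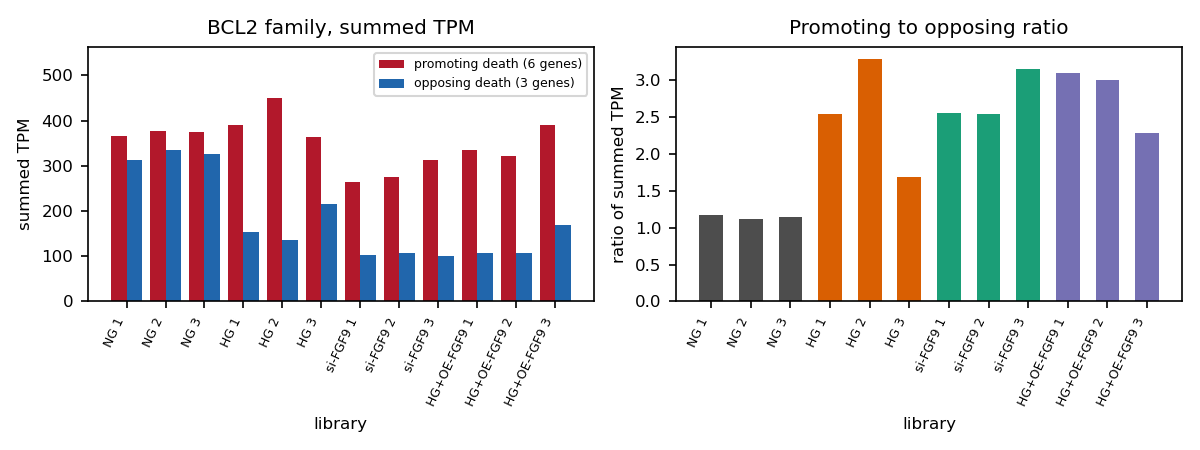
Left, summed TPM of the 6 BCL2 family genes that promote death (red) and the 3 that oppose it (blue) in each library, and right, their ratio, coloured by group, both on axes from 0. The NG ratios sit between 1.12 and 1.17 and those of the other 9 libraries between 1.69 and 3.29.

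The 3 death receptors were lower in si-FGF9, and FAS and TNFRSF10B were lower in HG as well. FAS, the receptor of the FAS ligand, had a TPM of 21.4, 14.5 and 14.2 in NG, 4.83, 2.08 and 5.66 under HG, 1.76, 2.56 and 0.84 with si-FGF9 and 1.28, 1.06 and 3.81 with HG+OE-FGF9. NG stood above all other libraries, and its replicate 1 above the other NG libraries. FAS had log2 fold changes of -1.82 ± 0.38 under HG and -2.73 ± 0.38 with si-FGF9 (limma adjusted p = 0.00291 and 5.93e-05). TNFRSF10B, a receptor of the ligand TRAIL, had a TPM of 44.3, 41.8 and 43.9 in NG, 18.9, 13.8 and 27.8 under HG, 10.4, 9.62 and 10.2 with si-FGF9 and 25.0, 25.5 and 29.9 with HG+OE-FGF9. NG was highest and si-FGF9 lowest, with no overlap with any other group, and HG and HG+OE-FGF9 overlapped between them. HG differed from NG by a log2 fold change of -1.12 ± 0.21 and si-FGF9 by -2.00 ± 0.21 (limma adjusted p = 0.0017 and 1.14e-05). The HG call of TNFRSF10B was lost without HG replicate 2, after both scalings and after the GC correction. That of FAS was lost after the GC correction.

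TNFRSF10A, the other TRAIL receptor, had a TPM of 5.04, 4.45 and 4.92 in NG, 2.61, 1.65 and 2.56 under HG, 1.24, 1.21 and 1.75 with si-FGF9 and 3.96, 4.04 and 3.97 with HG+OE-FGF9. All 4 groups were apart except for si-FGF9 replicate 3, which lay above the lowest HG library. Relative to NG, the log2 fold change was -1.28 ± 0.18 for si-FGF9 (limma adjusted p = 5.59e-05) and HG+OE-FGF9 differed from HG by 0.62 ± 0.18 (limma adjusted p = 0.0474), the latter under the fold criterion. The si-FGF9 call was lost after both scalings and after the GC correction, and its smallest change over the alternatives was -0.30.

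CASP8 and CASP9, both initiator caspases, were the 2 of the 34 genes called between si-FGF9 and HG, where 11.1% of all genes were called. CASP8, the initiator caspase of the death receptors, had a TPM of 8.08, 7.58 and 9.44 in NG, 5.60, 4.13 and 3.01 under HG, 0.62, 0.53 and 0.85 with si-FGF9 and 2.36, 2.60 and 3.92 with HG+OE-FGF9. Every si-FGF9 library lay below 1 TPM and below all other libraries, and HG and HG+OE-FGF9 overlapped. CASP8 had log2 fold changes of -0.86 ± 0.22 under HG, short of the fold criterion, and -2.49 ± 0.22 with si-FGF9 (limma adjusted p = 0.00771 and 7.06e-06). Directly between si-FGF9 and HG it was -1.63 ± 0.22 (limma adjusted p = 0.00164), with a range of -2.48 to -1.15 over the alternatives, all of which kept the call. CASP9, the initiator caspase of the mitochondrial route, had a TPM of 6.42, 6.53 and 6.50 in NG, 5.94, 5.63 and 4.55 under HG, 2.69, 0.70 and 2.00 with si-FGF9 and 2.96, 2.89 and 4.06 with HG+OE-FGF9. HG+OE-FGF9 lay below HG and above si-FGF9, and si-FGF9 replicate 2 was the lowest by far. The si-FGF9 libraries differed from NG by a log2 fold change of -1.49 ± 0.26 and from HG by -1.25 ± 0.26 (limma adjusted p = 0.000252 and 0.0057). The call versus NG was lost after both scalings, and its smallest change over the alternatives was -0.47. The call versus HG was lost after both scalings, after the GC correction and without si-FGF9 replicate 2 (-0.93).

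XIAP, an inhibitor of the executioner caspases, had a TPM of 21.6, 20.1 and 18.6 in NG, 5.82, 4.44 and 10.6 under HG, 4.57, 3.34 and 4.10 with si-FGF9 and 4.92, 5.37 and 9.55 with HG+OE-FGF9. NG stood above all other libraries, HG overlapped si-FGF9 and HG+OE-FGF9, and si-FGF9 lay below HG+OE-FGF9. XIAP had log2 fold changes of -1.48 ± 0.28 under HG and -2.08 ± 0.28 with si-FGF9 (limma adjusted p = 0.00202 and 5.04e-05). The HG call was lost after both scalings and after the GC correction, and the si-FGF9 call after the GC correction. The smallest changes over the alternatives were -0.40 and -0.46.

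**Figure D5:**
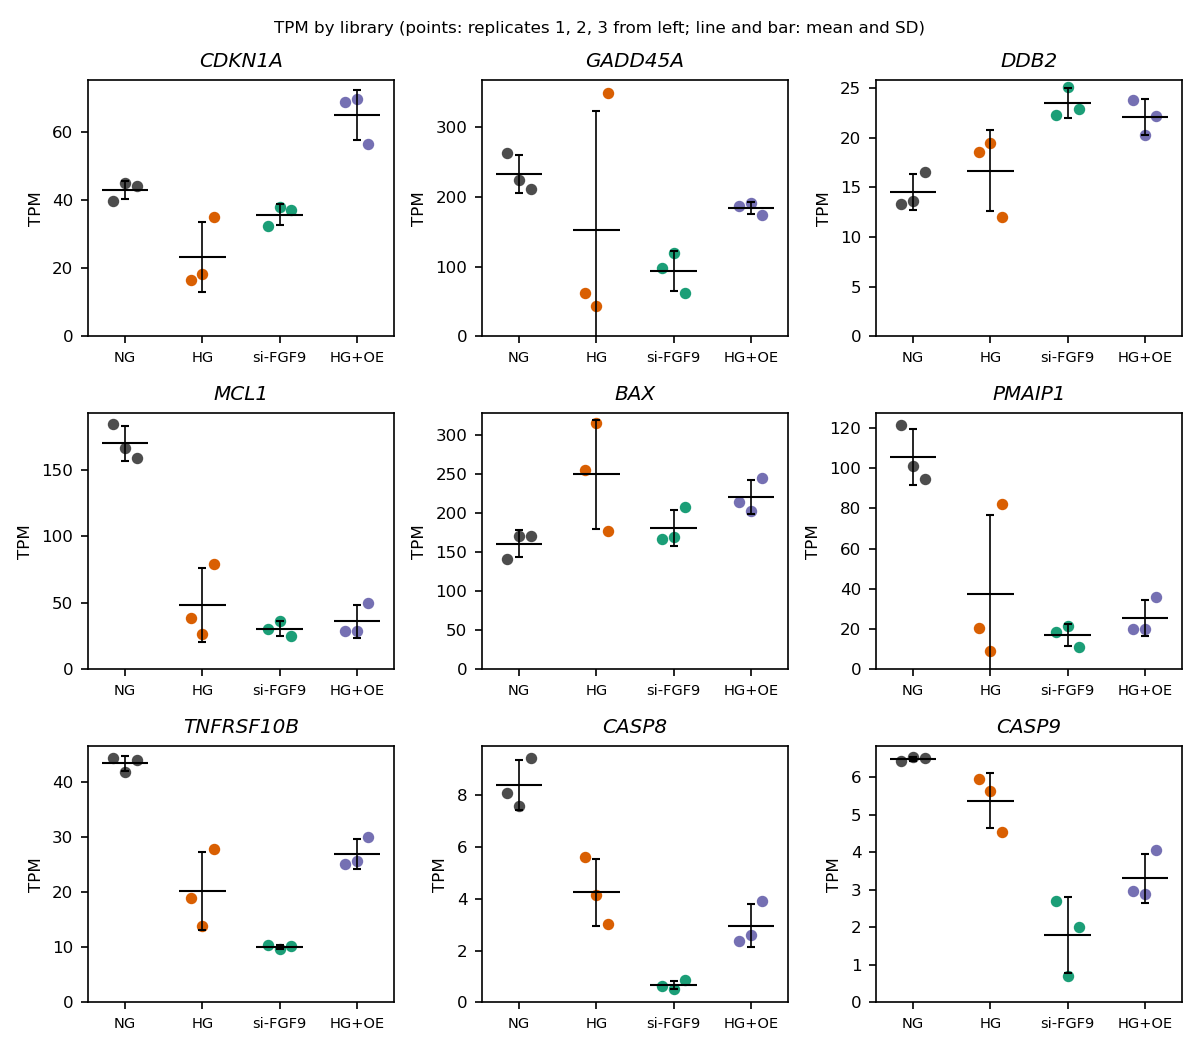
TPM (y axes, from 0) of 9 of the genes in each library, with points for replicates 1, 2 and 3 from left to right, a line for the mean and bars for the SD, cut at 0 where they would pass it; HG+OE stands for HG+OE-FGF9. HG replicate 3 lies far above the other HG libraries for GADD45A and PMAIP1, the HG+OE-FGF9 libraries lead for CDKN1A, and CASP8 lies below 1 TPM in every si-FGF9 library.

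Of 65 further genes of the p53 network and apoptosis, 59 were tested. Versus NG, 14 were lower and 1 higher under HG, against 22.7% and 1.65% of all genes, with a median of -0.44 against -0.39. With si-FGF9 28 were lower and 1 higher, against 42.2% and 5.36%, with a median of -0.97 against -0.79. Between HG+OE-FGF9 and HG 2 were lower and 2 higher, against 2.67% and 2.94%, with a median of -0.07 against -0.13.

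The 3 with the largest fold change in HG and in si-FGF9 were the same genes, all lower. APAF1, the scaffold on which CASP9 is activated, had a TPM of 13.6, 13.2 and 14.9 in NG and 0.26, 0.27 and 0.34 in si-FGF9, and log2 fold changes of -1.78 ± 0.22 under HG and -3.53 ± 0.22 with si-FGF9. BIRC3, an inhibitor of apoptosis, changed by -2.11 ± 0.39 and -3.23 ± 0.39 and TP53BP2, a p53-binding protein that favours death genes, by -1.71 ± 0.21 and -3.03 ± 0.21 (limma adjusted p of all 6 values, 2.22e-06 to 0.00177). The HG calls of APAF1 and BIRC3 were lost after the GC correction. BAD, a promoter of death that was the 1 higher gene in both and is named after its values were seen, had 13.7, 19.8 and 21.4 TPM in NG, 63.0, 73.9 and 32.9 under HG and 69.6, 62.0 and 73.9 with si-FGF9, with a log2 fold change of 1.53 ± 0.28 and 1.87 ± 0.28. In HG+OE-FGF9 versus HG the p53 and stress target GDF15 had a TPM of 204, 200.4 and 128 against 26.1, 26.2 and 113, with a log2 fold change of 1.99 ± 0.44 (limma adjusted p = 0.0164), and HG replicate 3 again stood at the NG level (87.1, 113 and 114). SESN2, another sestrin, was higher by 1.19 ± 0.27, and TRIM22 (-1.09 ± 0.31) and TP53I11 (-1.03 ± 0.20, named after its values were seen) were lower (limma adjusted p = 0.0187, 0.0448 and 0.00958). With HG+OE-FGF9 replicates 1 and 2 taken as 1 sample, TRIM22 and TP53I11 no longer passed, and CDKN1A stayed the 1 call among the 34 genes. GDF15 and SESN2 still passed in that setting, but with a limma adjusted p of 0.1 and 0.107. SESN2 no longer passed when HG replicate 3 was left out as well. TRIM22 also did not pass after the GC correction, without HG replicate 1 or 3, or without HG+OE-FGF9 replicate 1 or 2. TP53I11 also did not pass after both scalings, without HG replicate 2, or without HG+OE-FGF9 replicate 2.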

How the data were processed

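RNA of HK2 cells was sequenced in 12 libraries, and the authors deposited TPM per Ensembl gene, to 2 decimals. The submitters' processing notes name Bowtie 0.12.2 and the mouse build mm8, although the cells are human, and the quantification tool and human build are not given in the sources used here. TPM keep no depth, so that no count test was possible and precision was judged from the 3 libraries of each group, which the labels do not call separate cultures, so that p-values measure only the spread between these libraries.

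Groups came from the sample titles. Differences were tested with limma 3.58.1 (R 4.3.3), with a variance trend, on log2(TPM + 1) in one fit of all 12 libraries, over the 14639 genes that reached a TPM of 1 in 3 or more libraries. This scale understates the change of low genes. The p-values are two-sided and were adjusted over all genes tested (Benjamini-Hochberg). The procedure was tested on simulated data. Positions and GC content came from GENCODE release 29 for 96.9% of the genes tested, and promoter windows from RefSeq. The GC correction subtracted a natural spline with 5 degrees of freedom from each library. All 34 genes were named, with TPM of every library for those called in at least 1 of the 3 comparisons and for others where libraries split, and from the 65 further genes the 3 with the largest fold change in each comparison. Some results that this rule would name are not reported here. The genes and lists were chosen with earlier results of these data known.

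The alternatives were no filter, a fit of only the 6 libraries compared, a block for the replicate number, adjusted p, a pseudocount of 0.1, median-of-ratios scaling, quantile normalization, the GC correction, and each library left out in turn. The mean of HG+OE-FGF9 replicates 1 and 2 as 1 sample was added after the data were seen.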

Additional observations from a re-analysis of the deposited data

How the results depend on the processing

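Over 18 alternatives per gene and comparison, 1675 values for the 34 genes kept their side of the criteria, 510 called in both cases, all with the same direction, and 1165 called in neither, of which 75 changed sign. Another 99 lost and 59 gained a call, and 3 called values turned direction: MDM2 in si-FGF9 versus NG (0.11 with the GC correction, and 0.11 with the GC correction and the replicate block) and BCL2L1 in si-FGF9 versus NG (0.02 with median-of-ratios scaling). The number of the 34 genes called in HG versus NG (12) was 19 by adjusted p alone, 4 with median-of-ratios scaling, 4 with quantile normalization, 1 with the GC correction and 1 with it and the replicate block, and 8 to 17 with 1 library left out (8 without HG replicate 2). In si-FGF9 versus NG (21) it was 10 with the GC correction, with or without the replicate block, and 19 to 22 with 1 library left out. In HG+OE-FGF9 versus HG (1) it was 5 by adjusted p alone, 3 with a pseudocount of 0.1 (adding PPM1D as higher and BCL2 as lower), and 1 to 4 with 1 library left out, namely 4 without HG replicate 3, and 3 (with MDM2 and FAS lower) without HG+OE-FGF9 replicate 3. It was 4 with HG+OE-FGF9 replicates 1 and 2 as 1 sample and no HG replicate 3. In si-FGF9 versus HG (2) it was 14 by adjusted p alone, against 4810 of all 14639 genes tested, and 6 with a pseudocount of 0.1. It was 2 to 8 with 1 library left out (8 without HG replicate 2, 4 without HG replicate 3), and 4 with the same 2 changes. Under median-of-ratios scaling 2 of 3 calls in this comparison were higher. In HG+OE-FGF9 versus NG (13) it was 23 by adjusted p alone, against 9502 of all 14639 genes tested. It was 4 with the GC correction, with or without the block, and under median-of-ratios scaling 6 calls were higher and 6 lower. For si-FGF9 versus HG and HG+OE-FGF9 versus NG, counts over all genes were not taken under the other alternatives. The counts of the 34 genes there, and their directions after scaling, therefore cannot be set against a share of all genes.

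Of the 59 further genes tested, the number called in HG versus NG (15) was 34 by adjusted p alone, 4 with the GC correction, 3 with it and the block, and 9 to 20 with 1 library left out (9 without HG replicate 2). In si-FGF9 versus NG (29) it was 12 with the GC correction, with or without the block. In HG+OE-FGF9 versus HG (4) it was 7 by adjusted p alone, 2 to 8 with 1 library left out (2 without HG+OE-FGF9 replicate 2, 8 without replicate 3), and 2 with replicates 1 and 2 as 1 sample, with or without HG replicate 3. Over all genes, HG versus NG (3570) gave 7174 by adjusted p alone, 2299 with median-of-ratios scaling, 2236 with quantile normalization, 970 with the GC correction, 968 with it and the block, and 2240 to 4744 with 1 library left out. In si-FGF9 versus NG (6966) it gave 3452 and 3426 with the GC correction without and with the block. In HG+OE-FGF9 versus HG (821) it gave 1395 by adjusted p alone, 434 with replicates 1 and 2 as 1 sample, and 435 to 1498 with 1 library left out.

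Between libraries of the same replicate number, deviations from the group means correlated between -0.44 and 0.25, over 0.1 in 3 of 18 pairs. Whether libraries of the same number share a batch cannot be told from these values. With the replicate block and no other change, the calls stayed at 12, 21 and 1 of the 34 genes and moved to 3518, 6922 and 793 over all genes. Low genes such as CASP8 and XPC in si-FGF9 lay under 1 TPM, where unknown depth limits the precision most. The causes of these changes were not tested.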
